A study of Macaca mulatta with 24 samples.

Results

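Mucins and goblet cell products are the genes of the mucus barrier of the colon. Goblet cells fill secretory granules with MUC2, the gel-forming mucin, and release trefoil factors (TFF1 and TFF3, small peptides that act in mucosal repair) and other proteins such as CLCA1 with it. Membrane mucins (MUC1, MUC4, MUC13 and MUC20) stay anchored on the surface of epithelial cells. AGR2 is an endoplasmic reticulum protein needed for mucin production, and SPDEF is a transcription factor of goblet cell maturation. TFF1 is best known from the stomach, and TFF3 is the trefoil factor of intestinal goblet cells.

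The 10 genes MUC1, MUC2, MUC4, MUC13, MUC20, TFF1, TFF3, SPDEF, AGR2 and CLCA1 were looked up among the 43603 probes of a 1-colour rhesus expression array (a single fluorescent dye, 1 RNA sample per array). MUC2, MUC13, AGR2 and CLCA1 were found by their symbol. MUC1, MUC20, TFF1 and TFF3 carried only a gene number in the tables, and that number gave the symbol through RefSeq's table of the telomere-to-telomere macaque assembly. MUC4 and SPDEF named no probe and were not analysed here. The 8 genes had 12 probes, and every one of these was well above background on all 24 arrays, so none was lost to the filter on dim probes. They were 8 of the 13463 named genes tested. MUC2, MUC13, TFF1 and CLCA1 had 2 probes each, and each of these genes is given by its brighter probe, by the mean signal of the 24 arrays.

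The colon of 24 young-adult male rhesus macaques was measured, 1 array per animal, as pieces of the whole gut wall. Total-body irradiation (TBI) was a single dose of gamma radiation to the whole animal. There were 4 sham-irradiated controls, which the labels place on day 4 and which served every day, 4 animals each on days 4 and 7 after 6.7-Gy and after 7.4-Gy TBI, and 2 animals on day 12 after each dose. Each value is the log2 signal of a probe minus the log2 of the 75th percentile of its array, so 0 is that percentile and 1 unit is a 2-fold difference. A gene was called, and is said to have risen or fallen, at an adjusted p under 0.05 in limma with at least a 2-fold change.

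Per array, 66.7% to 85.0% of probes passed the scanner software's mark for signal well above background, and no spot was saturated. Of 13 epithelial markers tested, 12 or 13 were well above background on every array, as were all 12 markers of absorptive colonocytes in the controls. All controls lay in position 1 of their slides, which they shared with 2 of the 6.7-Gy day 4 arrays, and the 7.4-Gy day 4 arrays lay in position 2. Arrays of days 7 and 12 lay in positions 3 and 4, so for these days slide position and irradiation cannot be told apart.

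**Figure D1:**
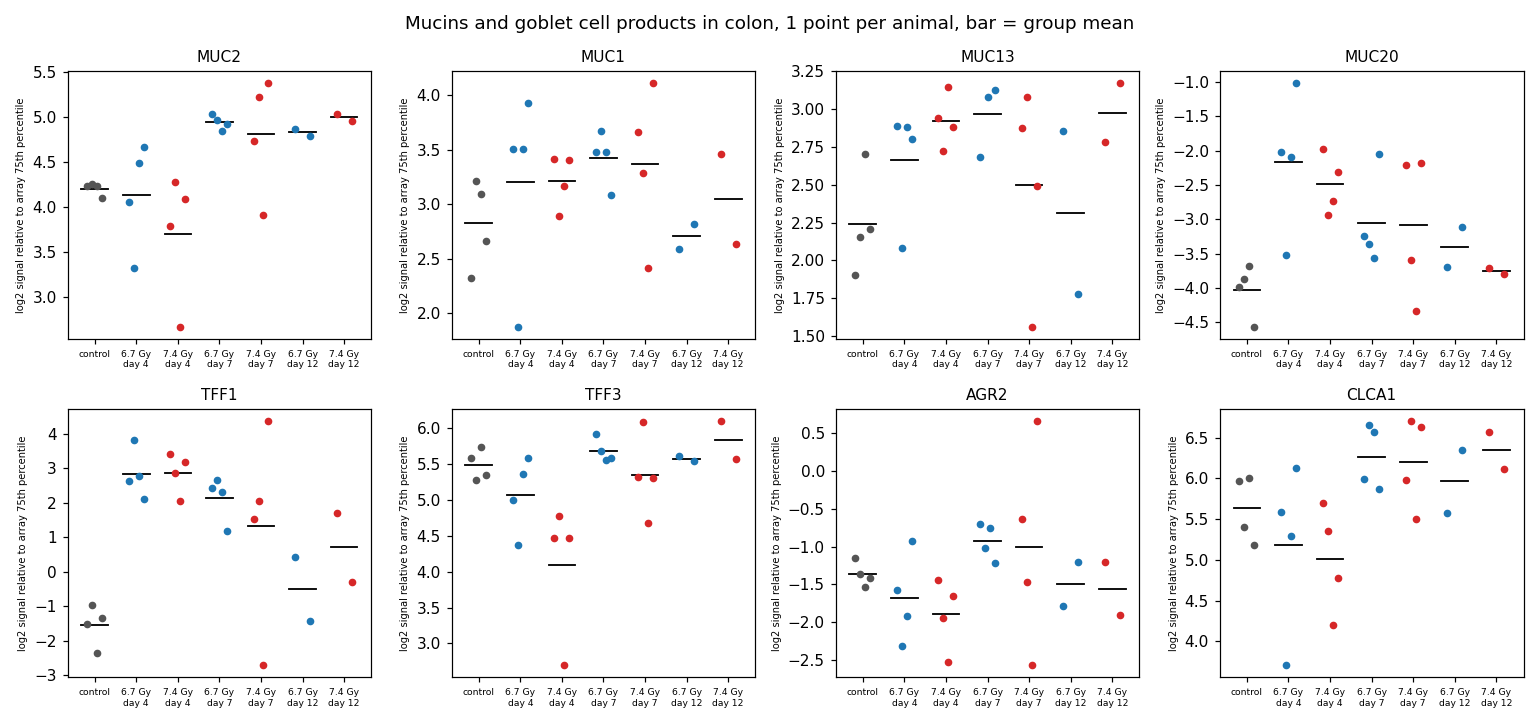
Signal of the 8 genes with a probe, by group. The vertical axis is the log2 signal relative to the array's 75th percentile, each point is 1 animal and each bar the group mean; grey marks controls, blue 6.7 Gy and red 7.4 Gy. All 8 TFF1 values on day 4 lie above all 4 control values, and 1 animal of 7.4 Gy day 7 has the lowest value of its group in all 8 genes.

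TFF1 showed the largest rise of the 8 genes on day 4. The 4 controls had TFF1 signals of -1.52, -0.95, -2.34 and -1.35. The 4 animals of 6.7 Gy day 4 had 2.63, 3.81, 2.79 and 2.10, and the 4 animals of 7.4 Gy day 4 had 3.40, 2.87, 2.04 and 3.19. Neither irradiated group overlapped with the controls. The change was 4.37 on the log2 scale after 6.7 Gy (20.7-fold, 95% interval 2.40 to 6.35, adjusted p = 0.00803) and 4.41 after 7.4 Gy (21.3-fold, 95% interval 2.44 to 6.39, adjusted p = 0.00322). The second TFF1 probe, with its own readout of the same arrays, rose by 4.99 over both doses (adjusted p = 0.00136) and was also called at each. In bulk tissue, more cells of a type and more RNA per cell cannot be told apart. Within slide position 1 the 6.7-Gy change was 4.76 (adjusted p = 0.0170), and with position as a block the 7.4-Gy change was 5.19 with its call lost (adjusted p = 0.0616). Within scan day 2 the changes were 5.07 (adjusted p = 0.0149) and 4.72 (adjusted p = 0.00360), and within scan day 1, with 2 animals on each side, the 6.7-Gy change was 3.68 (adjusted p = 0.484). With position and scan day as blocks, the TFF1 calls after 7.4 Gy and over both doses were lost (adjusted p = 0.169 and 0.0704).

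On day 7 most irradiated animals still had high TFF1. The 6.7-Gy animals had TFF1 signals of 2.44, 2.66, 2.32 and 1.17, and the 7.4-Gy animals had 1.54, 2.06, -2.71 and 4.36. All animals of 6.7 Gy and 3 of 4 of 7.4 Gy lay above every control, while replicate 3 of 7.4 Gy lay below every control. Because of that animal the 7.4-Gy group overlapped with the controls and its spread was wide. The changes of 3.69 (adjusted p = 0.0986) and 2.85 (adjusted p = 0.222) did not pass the test, nor did the change over both doses of 3.27 (adjusted p = 0.0523). Without replicate 3 of 7.4 Gy the TFF1 changes on day 7 were 3.69 (adjusted p = 0.0103), 4.19 (adjusted p = 0.00598) and 3.94 over both doses (adjusted p = 0.00114), so this library decided the call in all 3 comparisons, for 6.7 Gy through the shared estimate of the spread. Without replicate 4 of 7.4 Gy, the highest of that group, the 6.7-Gy call was also made (adjusted p = 0.0388).

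On day 12 the TFF1 signals were 0.42 and -1.43 after 6.7 Gy and 1.71 and -0.29 after 7.4 Gy. After 7.4 Gy both animals were above all controls, and after 6.7 Gy 1 of the 2 lay within their range. The changes of 1.03 (95% interval -1.39 to 3.45) and 2.25 (95% interval -0.17 to 4.67) did not pass the test. Over both doses TFF1 was 2.75 lower on the log2 scale on day 12 than on day 4 (adjusted p = 0.0200), with all 4 animals of day 12 below all 8 of day 4. That call was lost without replicate 2 of 6.7 Gy day 12 (-2.29, adjusted p = 0.104) or replicate 2 of 7.4 Gy day 12 (-2.25, adjusted p = 0.106).

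TFF3 went the other way on day 4 after 7.4 Gy. The controls had TFF3 signals of 5.58, 5.28, 5.73 and 5.35, and the 7.4-Gy animals had 4.47, 4.77, 2.69 and 4.46. All 4 lay below every control, and replicate 3 was far below the other irradiated animals. TFF3 fell by 1.39 on the log2 scale (a 2.61-fold drop, 95% interval -2.14 to -0.63, adjusted p = 0.0113). Without replicate 3 the change was -0.92 (adjusted p = 0.0341), under the 2-fold limit, and with position as a block it was -2.18 (adjusted p = 0.0270). The call was lost within scan day 2 (-1.44, adjusted p = 0.0786), with slide as a block (-1.23, adjusted p = 0.0576), with position and scan day as blocks (-2.09, adjusted p = 0.192), with the 2 groups compared alone (adjusted p = 0.0634) and by the methods' own test (adjusted p = 0.119).

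The 6.7-Gy animals of day 4 had TFF3 signals of 4.99, 4.37, 5.36 and 5.58, which overlapped with the controls, and the change of -0.41 (95% interval -1.16 to 0.35) did not pass. The dose difference in TFF3 on day 4 was -0.98 (95% interval -1.73 to -0.22, adjusted p = 0.674), so the doses were not shown to differ. Over both doses, TFF3 was -0.90 from the controls on day 4 (adjusted p = 0.0459), under the 2-fold limit, and 0.03 on day 7 (95% interval -0.62 to 0.69). The day 4 change was called with position as a block (-1.49, adjusted p = 0.0455) and without replicate 2 of 7.4 Gy (-1.01, adjusted p = 0.0257).

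TFF2, the third trefoil factor, is not among the 10 genes, but it lies between TFF1 and TFF3 in RefSeq's gene order. Its mean signal was 1.81 ± 0.44 (SD, n = 4) in the controls, 3.12 ± 0.84 after 6.7 Gy and 3.07 ± 0.62 after 7.4 Gy on day 4. TFF2 did not pass at either dose alone (changes of 1.31 and 1.25, adjusted p = 0.0871 and 0.0697) and rose over both doses by 1.28 (adjusted p = 0.0327). Between days 4 and 7 it fell by 1.15 on the log2 scale (adjusted p = 0.0169). By day 12 the TFF2 signal ranged from 0.61 to 0.79 after 6.7 Gy and from 0.87 to 2.67 after 7.4 Gy.

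Among the membrane mucins, MUC20 rose on day 4 at both doses. The controls had MUC20 signals of -3.98, -3.87, -3.69 and -4.57. The animals had -2.02, -3.52, -2.09 and -1.01 after 6.7 Gy and -1.98, -2.94, -2.73 and -2.30 after 7.4 Gy. No irradiated animal of day 4 overlapped with the controls, and replicate 2 of 6.7 Gy came closest to them. MUC20 was 1.87 higher after 6.7 Gy (3.65-fold, 95% interval 0.84 to 2.89, adjusted p = 0.0220) and 1.54 higher after 7.4 Gy (2.91-fold, 95% interval 0.52 to 2.56, adjusted p = 0.0325). Within slide position 1 the 6.7-Gy change was 1.26 (adjusted p = 0.225), and with position as a block the 7.4-Gy change was 0.32 (adjusted p = 0.856), so neither MUC20 call held with position. Within scan days the 6.7-Gy change was 2.38 (adjusted p = 0.361) and 1.36 (adjusted p = 0.258), and the 7.4-Gy change within scan day 2 was 1.64 (adjusted p = 0.0767). Both calls were also lost with normexp background correction and with position and scan day as blocks. The 6.7-Gy call was lost as well with the groups compared alone and by the methods' own test after adjustment. The 6.7-Gy call was lost without replicate 1 (1.82), replicate 4 (1.48) or control replicate 4 (1.69). The 7.4-Gy call was lost without replicate 1, 3 or 4 or control replicate 1, 2 or 4, with changes of 1.36 to 1.62.

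On day 7 the MUC20 changes were 0.97 after 6.7 Gy and 0.95 after 7.4 Gy, and neither passed the test. Signals ranged from -3.56 to -2.06 after 6.7 Gy and from -4.33 to -2.18 after 7.4 Gy. Over both doses MUC20 was lower on day 12 than on day 4 (a change of -1.25, adjusted p = 0.0375). That call was lost without any of the 4 arrays of day 12, replicate 1, 3 or 4 of 6.7 Gy day 4 or replicate 1 or 4 of 7.4 Gy day 4, with changes of -1.40 to -1.06. It was also lost with the replicate block (-1.14, adjusted p = 0.0557), scan day as a block (-1.22, adjusted p = 0.0517), scaling on spike-in probes (adjusted p = 0.0609) and normexp background correction (-0.41, adjusted p = 0.234), and within scan day 2 (-0.95, adjusted p = 0.122).

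MUC1, a membrane mucin with a signalling tail, and MUC13, a membrane mucin abundant in the large intestine, were called in no main comparison. MUC1 signals ranged from 2.32 to 3.22 in the controls, from 1.87 to 3.92 after 6.7 Gy and from 2.89 to 3.41 after 7.4 Gy on day 4. The MUC1 changes on day 4 were 0.38 (95% interval -0.41 to 1.16) and 0.39 (95% interval -0.39 to 1.18), so the intervals reach a 2-fold rise. MUC13 signals ranged from 1.90 to 2.70 in the controls and from 2.72 to 3.15 after 7.4 Gy on day 4, without overlap. The MUC13 change there was 0.68 (95% interval 0.06 to 1.30, adjusted p = 0.110), which did not pass, and the second MUC13 probe changed by 0.50 (adjusted p = 0.309). Among 6.7-Gy animals of day 4, 3 had MUC13 signals of 2.80 to 2.88 and replicate 2 had 2.08. On day 7 after 6.7 Gy, 1 MUC13 spot was an outlier on its array, and the fit used 3 animals.

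**Figure D2:**
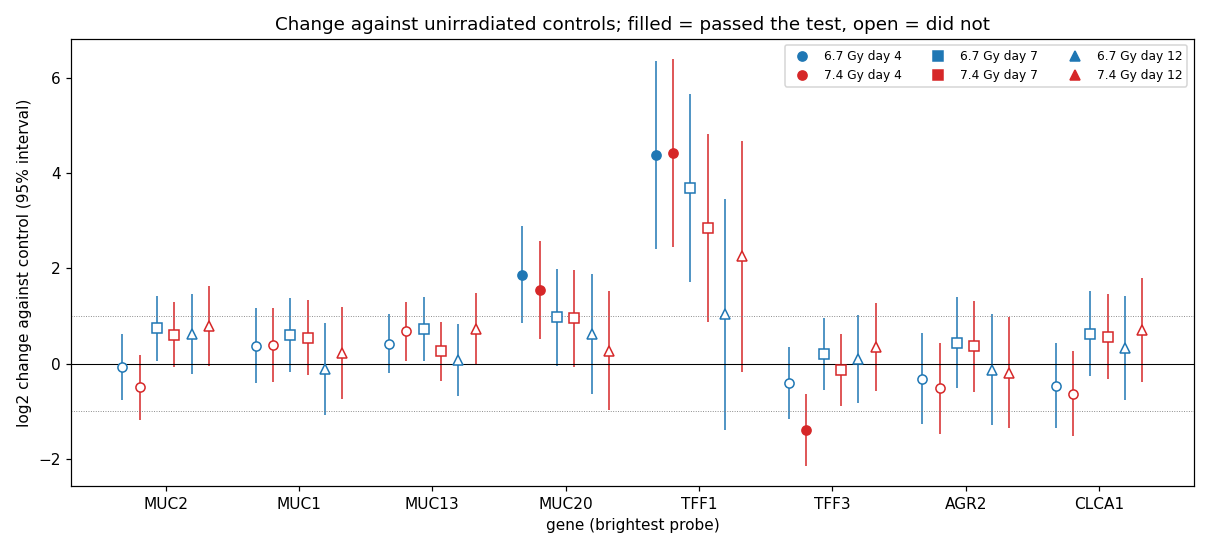
Log2 change of each gene against the 4 controls in the 6 irradiated groups (points) with 95% intervals from limma (lines); filled points passed the test and open points did not, and dotted lines mark a 2-fold change. TFF1 and MUC20 are above the upper dotted line and called at both doses on day 4, TFF3 is below the lower one after 7.4 Gy on day 4, and the other genes have open points throughout.

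MUC2, the main structural mucin of the colon, was called in no main comparison. The controls were tight, with MUC2 signals of 4.23, 4.25, 4.23 and 4.09. On day 4 the animals had 4.06, 3.32, 4.49 and 4.66 after 6.7 Gy and 3.78, 4.27, 2.66 and 4.09 after 7.4 Gy. Both groups overlapped with the controls and spread more widely than these, with 2 of the 6.7-Gy animals above all controls and 2 below. The MUC2 changes were -0.07 (95% interval -0.76 to 0.62) and -0.50 (95% interval -1.19 to 0.19). On day 7 the signals were 5.04, 4.97, 4.85 and 4.93 after 6.7 Gy and 4.74, 5.22, 3.91 and 5.38 after 7.4 Gy. Of these 8 animals, 7 lay above every control, and the change over both doses was 0.68 (95% interval 0.08 to 1.27, adjusted p = 0.303), which did not pass. On the second MUC2 probe the day 7 means were 0.31 after 6.7 Gy and 0.60 after 7.4 Gy. The control mean on that probe was 0.35, and both groups overlapped with the controls.

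Between days the MUC2 difference was larger than against the controls. Over both doses MUC2 was 0.96 higher on day 7 than on day 4 (a 1.95-fold difference, 95% interval 0.48 to 1.45, adjusted p = 0.00528) and 1.99-fold higher on day 12 than on day 4 (adjusted p = 0.0159). Both were below the 2-fold limit and passed by adjusted p alone. Without replicate 3 of 7.4 Gy day 7 the day 7 difference was 1.11, and without replicate 3 or 4 of 6.7 Gy day 4 or replicate 2 or 4 of 7.4 Gy day 4 it was 1.02 to 1.06, all of which were called. The day 12 difference was 1.01 to 1.09 and called without any of 7 single arrays (replicate 2 of either day 12 group, replicates 3 and 4 of 6.7 Gy day 4, and replicates 1, 2 and 4 of 7.4 Gy day 4), and also with quantile normalization, spike-in scaling, scan day as a block and within scan day 2. The second MUC2 probe, which the tables assign to a partial transcript model, changed by 0.46 on day 7 against day 4 (adjusted p = 0.0352) and by 0.14 on day 12 against day 4 (adjusted p = 0.626).

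CLCA1, a protein secreted into mucus by goblet cells, moved in the same order. The controls had CLCA1 signals of 5.97, 5.40, 6.01 and 5.18. On day 4 the animals had 5.58, 3.71, 5.29 and 6.13 after 6.7 Gy and 5.69, 5.35, 4.20 and 4.78 after 7.4 Gy. On day 7 they had 5.99, 6.65, 6.56 and 5.87 after 6.7 Gy and 5.97, 6.70, 5.50 and 6.63 after 7.4 Gy. On this brighter probe the irradiated groups overlapped with the controls on both days. Against the controls CLCA1 changed by -0.46 and -0.63 on day 4 and by 0.63 and 0.56 on day 7, none of which passed. The second CLCA1 probe differed from it at 6.7 Gy on day 7. There every animal lay above every control (5.75 to 6.47, with controls from 4.61 to 5.44), with means of 6.14 and 5.07. The count of called genes rests on the brighter probe and does not include this difference. After 7.4 Gy, day 7 signals of that probe ranged from 4.61 to 5.75 and overlapped with the controls.

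Over both doses CLCA1 rose by 1.14 from day 4 to day 7 (2.21-fold, 95% interval 0.51 to 1.77, adjusted p = 0.00934), with every animal of day 7 above the mean of day 4. It was also 1.06 higher on day 12 than on day 4 (adjusted p = 0.0426), a call lost without any of the 4 arrays of day 12, replicate 2 or 3 of 6.7 Gy day 4 or replicate 3 or 4 of 7.4 Gy day 4 (changes of 0.82 to 1.25). The day 12 call was also lost with slide as a block (adjusted p = 0.0519), the replicate block (adjusted p = 0.0939), median scaling (adjusted p = 0.0627), the mean over both probes (0.76, adjusted p = 0.104), the groups compared alone (adjusted p = 0.106) and the methods' own test (adjusted p = 0.112). The second CLCA1 probe changed by 0.96 (adjusted p = 0.00987) and 0.47 (adjusted p = 0.294). Without replicate 2 of 6.7 Gy day 4, the lowest CLCA1 value of all animals, the change from day 4 to day 7 was 0.90 (adjusted p = 0.0151), under the 2-fold limit, and with slide as a block it also fell just under that limit (adjusted p = 0.0313). Days 4 and 7 shared no slide position, so position and day cannot be told apart in this comparison.

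AGR2 was called in no main comparison. Its signals were -1.15, -1.36, -1.53 and -1.42 in the controls and ranged from -2.31 to -0.92 after 6.7 Gy and from -2.52 to -1.44 after 7.4 Gy on day 4. On day 7 they ranged from -1.22 to -0.71 after 6.7 Gy and from -2.57 to 0.65 after 7.4 Gy, the widest range of any group. From day 4 to day 7 AGR2 changed by 0.82 over both doses (95% interval 0.15 to 1.49, adjusted p = 0.0669). Without replicate 3 of 7.4 Gy day 7 the AGR2 change was 1.08 and was called (adjusted p = 0.00762).

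**Figure D3:**
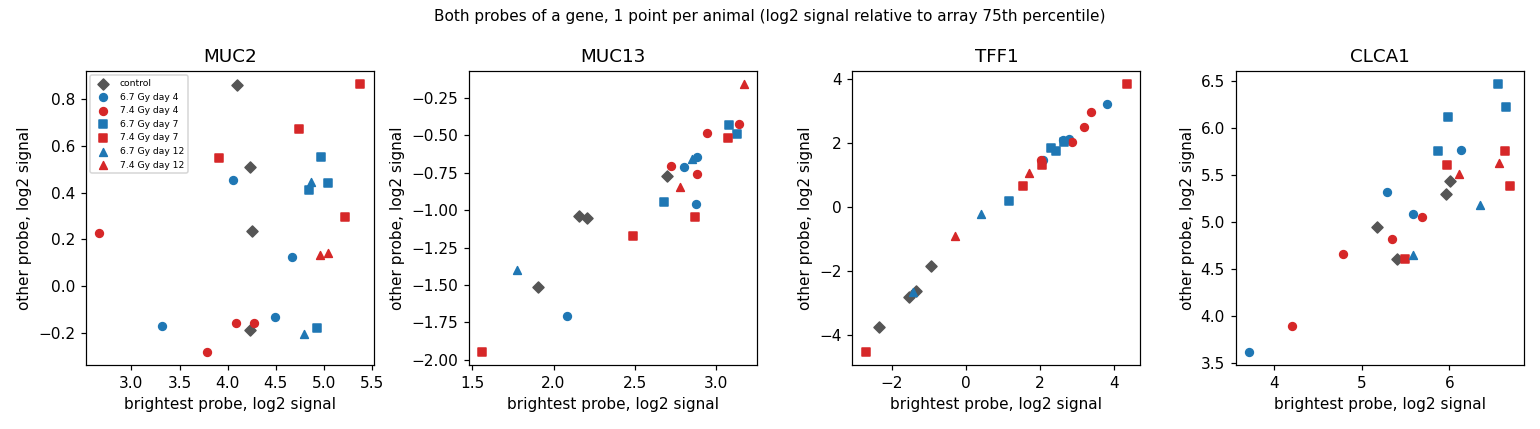
The 4 genes with 2 probes, brightest probe on the horizontal and other probe on the vertical axis, both as log2 signal relative to the array's 75th percentile, 1 point per animal (diamonds controls, circles day 4, squares day 7, triangles day 12; blue 6.7 Gy, red 7.4 Gy). The 2 TFF1 probes lie close to a line over the whole range, and the 2 MUC2 probes do not.

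On day 4, 2 of the 8 genes were called after 6.7 Gy, both higher (TFF1 and MUC20), against 4.31% of the 13463 named genes. After 7.4 Gy 3 were called, with TFF3 lower beside them, against 8.24% of named genes, and over both doses 2 were called against 6.77%. The median change of the 8 genes was 0.15 and -0.05 after the 2 doses, against medians of -0.04 and -0.02 over all named genes, and 4 of 8 changes were positive at each dose. The list therefore had no common direction on day 4.

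On day 7 limma called 0 of the 8 genes at either dose, where 0.386% and 0.49% of named genes were called. At an unadjusted p under 0.05 the counts were 3 after 6.7 Gy (MUC2, MUC13 and TFF1) and 1 after 7.4 Gy (TFF1). Here and below, counts at an unadjusted p are given without a share of all named genes, which was not computed at that threshold. The changes were positive in 8 and 7 of the 8 genes, with medians of 0.68 and 0.55 against -0.02 and 0.01 over all named genes. The 8 genes were read on the same animals and are not independent. The methods' own test per probe, run on the same values, also called 0 after adjustment at either dose.

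On day 12 limma called 0 of the 8 genes at either dose, against 0.0149% of named genes each, and 0 passed an unadjusted p under 0.05. Each of these groups had 2 animals, and the 95% interval of the MUC2 change ran from -0.21 to 1.47 after 6.7 Gy and from -0.05 to 1.63 after 7.4 Gy. Over both doses the counts were 0 on day 7 against 0.98% of named genes and 0 on day 12 against 0.0669%, with 3 and 1 genes at an unadjusted p under 0.05. Controls of day 4 served for all days.

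Between the doses, limma called 0 of the 8 genes on days 4, 7 and 12, against 0% of named genes on each day. At an unadjusted p under 0.05 the counts were 1 on day 4 (TFF3) and 0 on days 7 and 12. For TFF1 the dose difference on day 4 was 0.04 with a 95% interval from -1.93 to 2.02, so a 2-fold dose difference in either direction lies inside the interval. For MUC2 on day 4 it was -0.43 (95% interval -1.12 to 0.26) and for CLCA1 -0.17 (95% interval -1.06 to 0.72). The change of the dose difference from day 4 to day 7 was called for 0 of the 8 genes, against 0.00743% of named genes, and 0 passed an unadjusted p under 0.05.

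Between days, 1 of the 8 genes (CLCA1) was called from day 4 to day 7, against 5.05% of named genes. For day 12 against day 4, 4 were called against 7.62%, with TFF3 and CLCA1 higher and TFF1 and MUC20 lower on day 12. TFF3 was 1.12 higher on day 12 (2.17-fold, adjusted p = 0.0141) and 0.93 higher on day 7 than on day 4 (adjusted p = 0.0117, under the 2-fold limit). The TFF3 call on day 12 was lost without replicate 1 of 6.7 Gy (adjusted p = 0.0509) or of 7.4 Gy (0.99, adjusted p = 0.0711) or replicate 3 of 7.4 Gy day 4 (0.88, under the 2-fold limit), with the groups compared alone (adjusted p = 0.0591) and by the methods' own test (adjusted p = 0.111). On day 7 TFF3 was called, at 1.01 to 1.04, without replicate 4 of 6.7 Gy day 4, replicate 2 of 7.4 Gy day 4 or replicate 3 of 7.4 Gy day 7. For TFF1, the change from day 4 to day 7 of -1.12 was called without replicate 4 of 7.4 Gy day 7 (-1.63, adjusted p = 0.0439). Against day 7, 0 were called on day 12 against 0.119%, and 0 passed an unadjusted p under 0.05. The day 4 values enter both comparisons with that day.

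Single animals moved in several of these genes together. Replicate 3 of 7.4 Gy day 7 had the lowest value of its group in all 8 genes. Replicate 2 of 6.7 Gy day 4 was lowest of its group in 7 genes and highest in TFF1, and replicate 4 of that group was highest in 6 and lowest in TFF1. Replicate 3 of 7.4 Gy day 4 was lowest in 5 genes (MUC2, TFF1, TFF3, AGR2 and CLCA1). No control was lowest in more than 3. These ranks are descriptions, and no animal was left out of the main comparisons.

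The other goblet cell products, a list of 25 genes with 17 tested, moved in both directions on day 4. After 6.7 Gy 1 rose and 1 fell, where 4.31% of all named genes were called, and after 7.4 Gy 2 rose and 4 fell, where 8.24% were, with median changes of -0.22 and -0.46 against -0.04 and -0.02 over all named genes. BEST2, a bestrophin anion channel of colonic goblet cells, fell at both doses, with log2 changes of -3.24 and -5.39 (adjusted p = 0.0104 and 9.53e-05), and 3 of 4 animals of 7.4 Gy had it well above background. TGM3, a transglutaminase that cross-links mucus proteins, had no control well above background. After 6.7 Gy TGM3 was at least 5.76-fold higher and after 7.4 Gy at least 20.2-fold higher (adjusted p = 0.0242 and 0.00106). These bounds set the control at the lowest signal well above background on its array.

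After 7.4 Gy RETNLB, a goblet cell protein with antibacterial activity, rose by 3.31 (adjusted p = 0.0447). ZG16, a lectin-like mucus protein, fell by 1.59 and TPSG1, a tryptase, fell by 1.32. BEST4, a bestrophin channel, fell by 2.57, with 3 of 4 animals of 7.4 Gy well above background. BEST4 is also known as the marker of a separate absorptive colonocyte type, so its fall is not specific to goblet cells. Which cells the other falls in this list came from was not tested. FCGBP, which binds MUC2 in mucus, did not pass against the controls on day 4 (-0.22 and -0.70) and rose from day 4 to day 7 by 1.34 (adjusted p = 0.00150). PIGR, the receptor that carries IgA into the lumen, rose over the same days by 1.23. Between these days 5.05% of all named genes were called. FCGBP and PIGR were picked after their values were seen, and TFF2 of the same list fell. Their rises are therefore not a result about the list. None of the 17 was called on day 7 or 12 against the controls at either dose.

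Regulators of the goblet and secretory lineages fell on day 4 in 2 of 17 tested genes after 6.7 Gy and 4 of 17 after 7.4 Gy, and none rose, where 4.31% and 8.24% of all named genes were called in either direction. ATOH1, the factor that sets the secretory fate, fell at both doses, with log2 changes of -1.32 and -2.16 (adjusted p = 0.0330 and 0.000732). Its mean signal was -2.51 ± 0.40 (SD, n = 4) in the controls, -3.83 ± 1.05 after 6.7 Gy and -4.67 ± 0.58 after 7.4 Gy (well above background in 3 of 4 animals), and on day 7 it was -2.66 ± 0.22 and -2.92 ± 0.31. CDX2, an intestinal identity factor, also fell (-1.21 and -1.28). KLF4, a factor of goblet cell differentiation, and ERN2, the stress sensor of mucus-producing cells, fell after 7.4 Gy (-1.13 and -1.02). KLF4 lost outlier spots, and its fit used 3 of 4 animals after 7.4 Gy and 2 of 4 after 6.7 Gy on day 4. ATOH1 then rose by 1.46 and CDX2 by 1.25 from day 4 to day 7, where 5.05% of all named genes were called. These rises were picked after the values were seen and are not a result about the list.

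Mucins are heavily O-glycosylated, and of 29 tested enzymes and transporters of that process 1 rose and 4 fell after 6.7 Gy, and 1 rose and 5 fell after 7.4 Gy, where 4.31% and 8.24% of all named genes were called. SLC26A2, a sulfate transporter, fell with log2 changes of -2.63 and -3.06, and was well above background in 3 of 4 animals at each dose. GCNT3, which branches mucin glycans, changed by -1.52 and -1.97, FUT2, the secretor fucosyltransferase, by -1.52 and -1.84, and ST3GAL4, a sialyltransferase, by -1.78 and -1.68. ST6GALNAC1, another sialyltransferase, fell by 1.71 after 7.4 Gy, and its 6.7-Gy change of -0.99 did not pass. GALNT2, which starts O-glycan chains, rose by 1.30 and 1.61. Over days 4 to 7, 7 of the 29 rose and 0 fell, where 5.05% of named genes were called, among them SLC26A2 (2.12), ST6GALNAC1 (1.61), FUT2 (1.51) and GCNT3 (1.24).

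**Figure D4:**
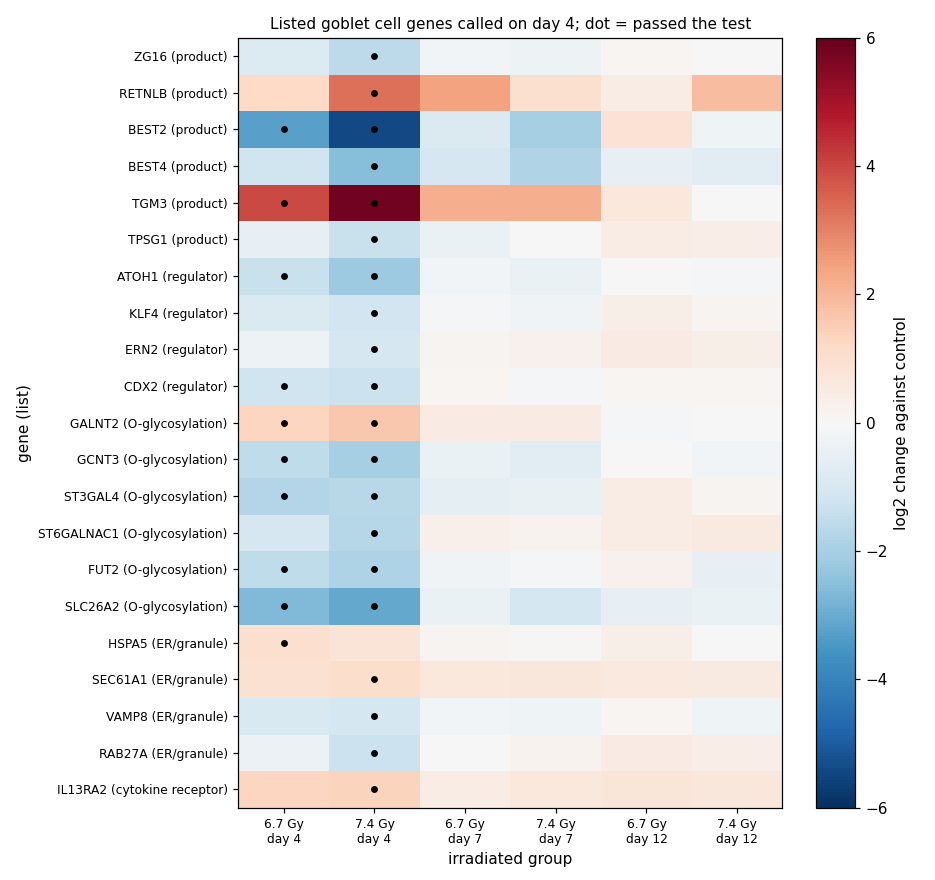
Log2 change against the controls (colour) of the listed goblet cell products, regulators, O-glycosylation genes, endoplasmic reticulum and granule genes and cytokine receptors that were called in at least 1 group, in the 6 irradiated groups (columns). Dots mark changes that passed the test, and all of them are in the 2 columns of day 4.

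Of 24 genes of protein folding and secretory granules, 1 rose after 6.7 Gy (HSPA5, the main chaperone of the endoplasmic reticulum, by 1.02), a share near the 4.31% of all named genes. After 7.4 Gy 1 rose (SEC61A1, a translocon subunit, by 1.04) and 2 fell (RAB27A and VAMP8, which act in granule release, with changes of -1.31 and -1.04), where 8.24% of all named genes were called. Of 11 mucus-stimulating cytokines and receptors, IL13RA2, a decoy receptor for IL13, rose by 1.32 after 7.4 Gy, and its 6.7-Gy change of 1.27 did not pass. This 1 gene of 11 is a share near the 8.24% of all named genes, and 2 of 4 controls had IL13RA2 well above background. Of 7 other mucins tested, limma called 0 against the controls in any of the 6 groups. Of these, MUC15 and OVGP1 were called higher on day 12 than on day 4, but on day 4 only 2 of 8 animals had MUC15 well above background and 4 of 8 had OVGP1, so the sizes of these differences are not given.

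**Figure D5:**
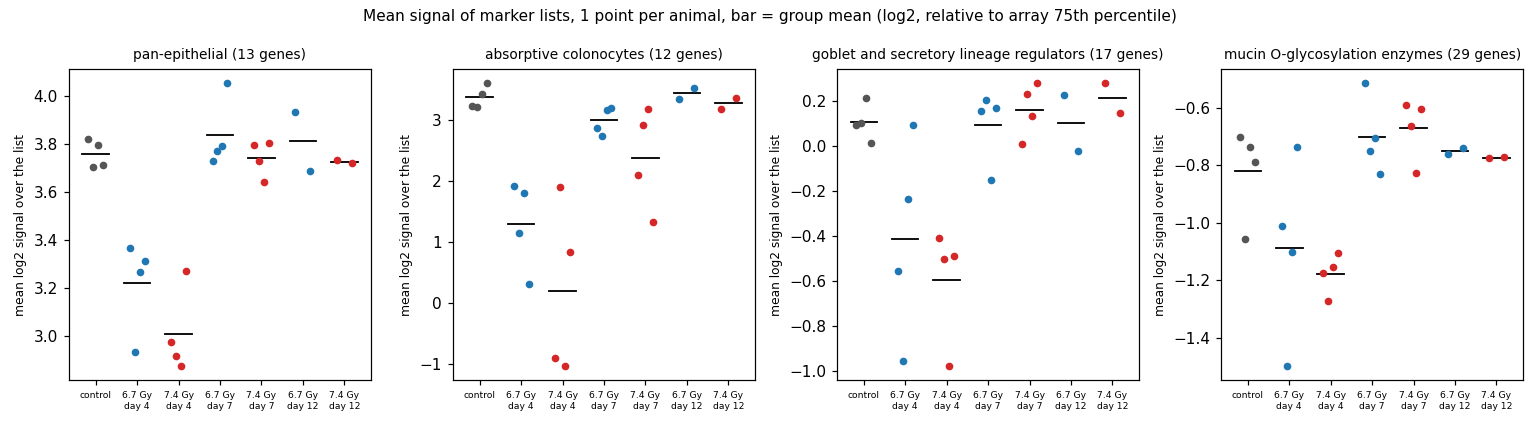
Mean log2 signal over the tested genes of 4 lists in each animal (points) with group means (bars); grey marks controls, blue 6.7 Gy and red 7.4 Gy. Every day 4 animal lies below every control in the epithelial and absorptive colonocyte lists, and the days 7 and 12 animals lie higher than those of day 4 in the epithelial list.

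Markers of the epithelium as a whole moved on day 4 beside these genes. Of 13 pan-epithelial markers 3 fell after 6.7 Gy and 6 after 7.4 Gy, where 4.31% and 8.24% of all named genes were called, among them KRT20, a keratin of differentiated cells (-1.34 and -1.58), and, after 7.4 Gy, VIL1, villin of the brush border (-1.63). Their mean signal per animal ranged from 3.70 to 3.82 in the controls, from 2.93 to 3.36 after 6.7 Gy and from 2.87 to 3.27 after 7.4 Gy on day 4. On day 7 it ranged from 3.73 to 4.05 and from 3.64 to 3.80. Of 12 markers of absorptive colonocytes, 6 fell after 6.7 Gy, and 8 fell and 1 rose after 7.4 Gy, among them CA1, a carbonic anhydrase, and CHP2. CA1 was well above background in 4 of 4 controls but in 2 of 4 animals after 6.7 Gy and 1 of 4 after 7.4 Gy, so its fitted changes of -6.06 and -7.46 rest in part on signals at background. CHP2 changed by -3.35 and -6.44, with 3 of 4 animals of 7.4 Gy well above background. The medians were -2.25 and -3.89 for absorptive colonocytes and -0.64 and -0.96 for the epithelial list, and the part of epithelial content in the changes of mucin and goblet cell genes was not tested.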

How the data were processed

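Per the file headers, the authors extracted spot intensities with Feature Extraction, which subtracted background, on a layout built on rheMac2. The processed signal in the deposited scanner files is an intensity. The deposited table of raw signals held the same intensity values, and the authors' deposited normalized table held log2 values, shifted per array and centred per probe.

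On each array 24 to 712 outlier spots were removed, and the remaining spots of a probe were averaged. The log2 signal minus each array's 75th percentile was the value tested. Probes well above background on at least 2 of 24 arrays entered (38234 of 43603). No coordinates are given, because the RefSeq assembly T2T-MMU8v2.0 used for names differs from the array's.

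Each probe was fitted with a mean for every group in limma 3.58.1 (R 4.3.3) and tested on simulated data. The two-sided p-values of 16 contrasts were adjusted by Benjamini-Hochberg over all probes. The number of animals limits the precision, and each p-value weighs a difference between groups against the spread between animals within the groups.

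The genes and the 20 gene lists beside them were chosen with earlier results of these data known. From the goblet lists, genes called against control were named, up to 6 per list and contrast, and from other cell types the 2 that changed most; genes called between days were chosen after their values were seen. Labels gave day 12 where a text label gave another day, and the sample labels were followed. Alternatives covered background correction, scaling, filters, tests, blocks and single arrays left out; those within a slide position or scan day were chosen after seeing the data.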

Additional observations from a re-analysis of the deposited data

Results flagged for a closer look

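In 4 of 59 sets of 4 values (1 probe in 1 group), 1 animal stood apart from the others by Dixon's criterion, where chance alone flags about 1 in 20. The MUC2 signal of control replicate 4 was 4.09, just below 3 nearly equal controls. The MUC13 signal of replicate 2 of 6.7 Gy day 4 was 2.08, and the TFF3 signal of replicate 3 of 7.4 Gy day 4 was 2.69. On the second TFF1 probe, replicate 4 of 6.7 Gy day 7 had 0.18. Replicate 3 of 7.4 Gy day 7, on which the TFF1 calls of day 7 turned, was not among these.

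In 5 cases the values of irradiated animals passed the test of a difference between days, over both doses. CLCA1 was 1.14 higher on day 7 than on day 4, and 1.06 higher on day 12 than on day 4. TFF3 was 1.12 higher on day 12 than on day 4. MUC20 and TFF1 changed by -1.25 and -2.75 from day 4 to day 12. The groups of these days shared no slide position, so position and day cannot be told apart. Not all of these calls held in other fits. With the replicate block, MUC20 and CLCA1 on day 12 were lost (adjusted p = 0.0557 and 0.0939), MUC20 was lost with scan day as a block (adjusted p = 0.0517), CLCA1 with slide as a block on both days, and TFF3 with the groups compared alone (adjusted p = 0.0591). TFF1 kept its call in all 18 other settings, but not without replicate 2 of either day 12 group.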

How the results depend on the processing

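Of the values called for single genes, 510 recomputed values kept their sign in every case. These came from the same arrays and from changes already selected as at least 2-fold, so a change of sign was unlikely from the start. Of 4914 recomputed values that were not called in the main comparison, 190 changed sign. The number of the 8 genes called on day 4 after 6.7 Gy was 1 in place of 2 with the groups compared alone, the methods' t-test after adjustment, normexp background correction, position as a block, position and scan day as blocks, within scan day 2 and within slide position 1, and 0 within scan day 1. After 7.4 Gy on day 4 it was 1 in place of 3 with position as a block and within scan day 2, and 0 with position and scan day as blocks. Over both doses on day 4 it was 1 in place of 2 with normexp and within scan day 2, and 0 with position and scan day as blocks. On day 7 it was 1 in place of 0 after 6.7 Gy with the groups compared alone and with the unadjusted t-test, and 1 over both doses with the unadjusted t-test, normexp and a filter at 12 of 24 arrays. On day 12 after 7.4 Gy it was 1 with the unadjusted t-test. From day 4 to day 7 it was 0 in place of 1 with slide as a block, and 3 within scan day 2 and by adjusted p alone. From day 4 to day 12 it was 2 in place of 4 with the groups compared alone, with the adjusted t-test and with the replicate block. Equal counts can hide exchanged genes: with scan day as a block and with spike-in scaling MUC20 was lost and MUC2 gained on day 12 against day 4, and with position as a block MUC20 was lost and TFF3 gained over both doses on day 4. Leaving out single arrays gave 1 to 2 genes (6.7 Gy day 4), 1 to 3 (7.4 Gy day 4), 2 to 3 (both doses day 4), 0 to 1 on day 7 at either dose and over both, 0 to 4 (day 7 against day 4) and 1 to 5 (day 12 against day 4). In all, 46 of 710 recomputed counts of these genes moved by more than 1.5 times or from or to 0. Of 3360 counts of the other lists, 291 did so. The cause was not tested.

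Replicate numbers did not pair the animals: over 62 pairs with the same number the deviations correlated at -0.23 to 0.24, with 13 above 0.1. With the replicate block the counts were the same as without it in every comparison except day 12 against day 4. Position as a block could be fitted for day 4 but not for days 7 and 12 against the controls. Normexp used the median spot signal.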

Other observations

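Markers of other epithelial lineages and cell cycle genes were also counted on day 4. All day 4 counts here are against 4.31% of named genes called after 6.7 Gy and 8.24% after 7.4 Gy. Of 3 Paneth cell markers tested, 1 rose after 6.7 Gy and 3 rose after 7.4 Gy. MMP7, a matrix-degrading enzyme and not a marker of Paneth cells alone, had no control well above background. It was at least 3.24-fold higher after 6.7 Gy and at least 12.2-fold higher after 7.4 Gy. DEFA6, a Paneth cell defensin, rose by 5.47 after 7.4 Gy (adjusted p = 0.0195), where its 6.7-Gy change was 2.81, and 3 of 4 controls had it well above background. Of 11 enteroendocrine markers, 0 were called after 6.7 Gy, and after 7.4 Gy CHGB rose, while INSL5 and PYY (-1.60) fell. The fitted INSL5 change of -3.45 rests in part on signals at background, since 2 of 4 animals of 7.4 Gy had it well above background. Of 8 tuft cell markers LRMP fell at both doses on days 4 and 7, with changes of -1.80 and -1.87 on day 7. On that day 0.386% and 0.49% of named genes were called. Group medians of the tuft list's mean signal were -1.81 in the controls and -2.44 and -2.24 on day 7. For T lymphocyte markers they were -0.83, -1.96 and -1.99, and for B lymphocyte and plasma cell markers -0.74, -2.05 and -1.92. Which cells the LRMP fall came from was not tested. Of 9 crypt base markers PLA2G2A rose by 1.77 after 6.7 Gy and ASCL2 by 1.05 after 7.4 Gy, and of 10 cell cycle genes TYMS rose at both doses by 1.16 and 1.68. A single called gene in such short lists is not a result about a cell type.

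Outside the epithelium, called genes on day 4 after 7.4 Gy were 3 of 9 fibroblast markers (COL1A2 by 1.79, PDGFRB by 1.16), 1 of 6 endothelial markers (VWF by 1.24, with 3 animals of 7.4 Gy in the fit) and 2 of 7 markers of macrophages and neutrophils (S100A8 by 3.62, S100A9 by 2.23), all higher, where 8.24% of all named genes were called. S100A8 was well above background in 3 of 4 controls. Markers of smooth muscle (5 tested), T lymphocytes (8), B lymphocytes and plasma cells (7) and gastric and small intestinal epithelium (6) had 0 calls at either dose on day 4 by limma.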
